A study of Mus musculus with 6 samples.

Results

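Transcripts of 32 genes of mitosis and the G2/M transition were followed in mouse spinal cord cultures. The 32 are a list of named genes, from the proliferation marker Mki67 to the transcription factor Foxm1. The list was chosen with earlier results of these data known. It was taken from 35275 Ensembl genes in the deposited tables, and all 32 had reads. The series holds 6 RNA-seq libraries, 2 in each of 3 groups coded IG, NG and TG. All were labelled as spinal cord neurons of the ICR strain taken on postnatal day 3 and kept in the culture medium DMEM. IG was labelled control without treatment, NG mechanical injury, and TG mechanical injury with an incubation in 75% hydrogen. The labels name no genotype or transgene, and they do not say whether the replicates of a group were independent cultures, animals or preparations. The p-values therefore set differences between groups against the scatter between these libraries, and that scatter may be technical.

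Depth was 15749447 to 23911141 reads in genes per library, with 20627 to 21267 genes detected by at least a read. The depositors' tables give group means. Reads per library were solved from them, and A stands for the deeper and B for the shallower library of each group. Pearson's r across genes was 0.987 to 0.989 within groups and 0.951 to 0.978 between groups on the log2 scale. The labels and the data did not go together in 2 respects. Of 10 immediate early and injury genes, 9 fell in the group with the injury label, NG, against the control-labelled IG, with a median log2 fold change of -3.31. Fos, an immediate early transcription factor, had 3204 and 3361 normalised reads in IG, 822 and 894 in NG and 3804 and 3897 in TG. Markers of many cell types besides neurons were present. Over 8 oligodendrocyte markers the libraries held 60836 to 123372 CPM (reads scaled to a common total of reads in genes), against 2201 to 4781 over 10 neuron markers. The group codes are used throughout, and a direction drawn from them is a direction between libraries labelled in this way.

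Cells that leave the cycle, as neurons do, keep most mitotic genes silent, while cycling cells switch them on together late in S phase and in G2. Cyclin A and B partners of the kinase Cdk1 drive entry into mitosis, the Aurora and Polo kinases build the spindle, the kinetochore ties chromosomes to microtubules, the checkpoint holds anaphase until they are attached, and the anaphase-promoting complex then marks cyclins and securin for destruction. The genes are switched through shared promoter elements: CCAAT boxes bound by NF-Y, and the CHR element bound by the MuvB core, which represses as part of the DREAM complex in resting cells and activates together with B-Myb and Foxm1 in cycling cells. In the early postnatal spinal cord, cycling cells include glial precursors, endothelial cells and cells of the meninges. In libraries of mixed cells, fewer cells of a type and less RNA per cell cannot be told apart.

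The mitotic genes stood highest in NG, lower in IG and lowest in TG. Of the 32 genes, 31 had both NG libraries above both IG libraries and both IG libraries above both TG libraries, an order held by 11.5% of all 24511 genes tested, of which 27.6% had both NG libraries above all the others. Anln, the gene of the actin-binding cytokinesis protein anillin, had the opposite order. Summed over the other 31 genes, the level was 6254 and 5826 in IG, 17024 and 15517 in NG and 3636 and 3468 in TG. The NG sum was 2.69-fold that of IG, and the IG sum 1.70-fold that of TG. These are normalised reads, scaled by median-of-ratios size factors, and a value given as a pair is that of libraries A and B.

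Differences were tested with limma on log2 of normalised reads plus 1, with 6 libraries in 1 fit and Benjamini-Hochberg adjustment over the 24511 genes, and a gene was called at an adjusted p under 0.05. In NG against IG, 31 of the 32 genes were higher and 1 was lower, beside 19.7% of all genes called higher and 20.4% called lower (40.1% in either direction). The median log2 fold change of the 32 was 1.39, and that of all genes 0.00. In TG against NG, 31 were lower and 1 higher, beside 23.1% of all genes lower and 22.2% higher (45.3% in either direction), with a median of -2.20. In TG against IG, 22 were lower, none was called higher and 10 were not called, beside 7.18% of all genes lower and 4.16% higher (11.3% in either direction), with a median of -0.76. None of these 22 calls held when IG A, IG B, TG A or TG B was left out of the fit, and nearly all calls over all genes were lost too. The 3 comparisons share libraries, so the third follows from the other two. In the authors' deposited tables the adjusted p was under 0.05 for 31 of the 32 higher and 1 lower in NG against IG (14.9% and 16.2% of all genes), 31 lower and 1 higher in TG against NG (18.8% and 18.7%), and 20 lower with 0 higher in TG against IG (6.69% and 4.46%).

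**Figure D1:**
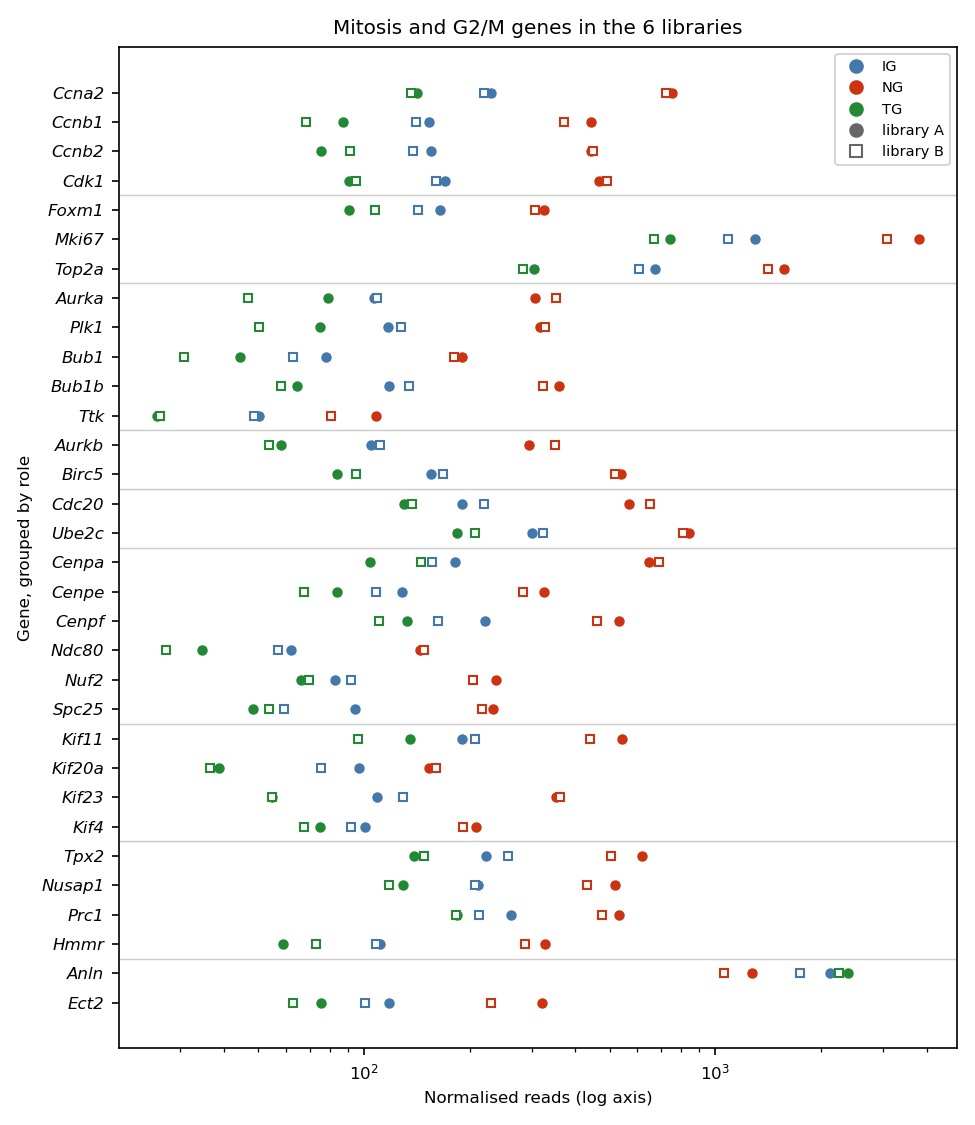
Normalised reads of the 32 genes, grouped by role, on a log axis, with a point for each of the 2 libraries of IG, NG and TG. In 31 genes the NG points lie above the IG points and the IG points above the TG points, while Anln has its lowest points in NG.

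The size of the change varied among the genes. Folds in the ranges that follow come from the fitted log2 values, and folds given later for single genes are ratios of group means, which differ from them slightly. Without Anln, log2 fold changes ran from 0.87 for Kif20a to 1.98 for Cenpa in NG against IG, or 1.83-fold to 3.95-fold. They ran from -1.45 for Prc1 to -2.68 for Kif23 in TG against NG, or 2.74-fold to 6.41-fold lower. In TG against IG the range was -0.36 to -1.16, or 1.28-fold to 2.24-fold lower. Standard errors were 0.10 to 0.24 in each comparison, so most neighbours in these orders did not differ beyond their error. At the ends the intervals did not overlap: the 95% interval in NG against IG was 0.42 to 1.32 for Kif20a and 1.59 to 2.37 for Cenpa. These genes were picked as the ends of the same estimates, so their intervals do not test whether the changes differ.

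**Figure D2:**
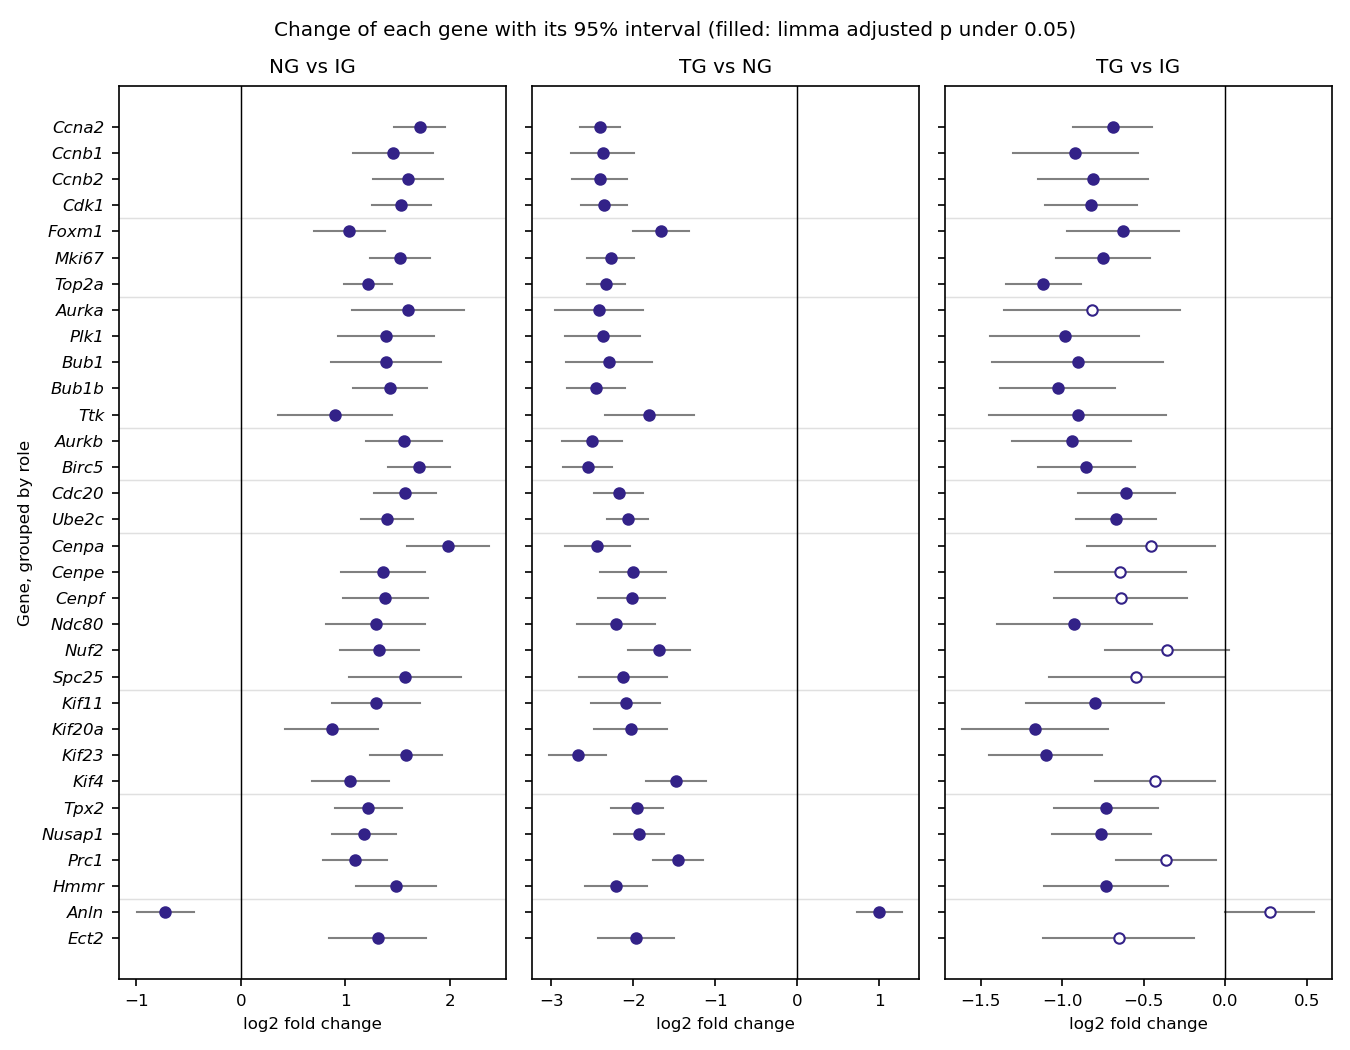
Log2 fold change of each gene with its 95% interval in NG against IG, TG against NG and TG against IG, grouped by role, with filled points for genes called by limma. Only Anln lies below 0 in NG against IG and above 0 in TG against NG, and 22 of the 32 points are filled in TG against IG.

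Promoters were taken from RefSeq windows of the GRCm38.p6 build, 250 bases before to 50 bases after the RefSeq transcription start. Windows were found for 27 of the 32 genes, Ccna2, Aurkb, Kif20a, Tpx2 and Foxm1 being without a window. Windows of 5 genes are shown because they hold both elements and, among the windows that do, belong to the genes with the largest changes between NG and IG. Capitals mark each CCAAT box (CCAAT, or ATTGG on the other strand) and each CHR element (TTTGAA or TTTAAA, or TTCAAA on the other strand).
Cenpa, chr5:30666636-30666935, plus strand: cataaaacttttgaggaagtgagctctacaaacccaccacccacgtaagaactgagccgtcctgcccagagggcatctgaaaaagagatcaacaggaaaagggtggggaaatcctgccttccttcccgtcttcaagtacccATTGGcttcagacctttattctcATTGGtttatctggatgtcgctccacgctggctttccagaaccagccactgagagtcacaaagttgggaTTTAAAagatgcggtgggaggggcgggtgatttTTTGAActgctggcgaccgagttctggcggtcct
Ccnb2, chr9:70421505-70421804, minus strand: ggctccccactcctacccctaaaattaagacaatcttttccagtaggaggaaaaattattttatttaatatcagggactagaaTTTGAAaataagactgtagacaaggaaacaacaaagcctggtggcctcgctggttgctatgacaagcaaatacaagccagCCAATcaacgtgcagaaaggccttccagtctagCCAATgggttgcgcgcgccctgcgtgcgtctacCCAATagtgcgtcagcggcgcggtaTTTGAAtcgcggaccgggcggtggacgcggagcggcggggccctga
Aurka, chr2:172370521-172370820, minus strand: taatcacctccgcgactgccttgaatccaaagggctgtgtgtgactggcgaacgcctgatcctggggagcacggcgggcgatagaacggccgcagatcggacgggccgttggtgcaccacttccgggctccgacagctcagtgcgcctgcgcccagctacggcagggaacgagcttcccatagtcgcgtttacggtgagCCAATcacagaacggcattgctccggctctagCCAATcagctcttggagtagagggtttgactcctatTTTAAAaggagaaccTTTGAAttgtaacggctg
Kif23, chr9:61946750-61947049, minus strand: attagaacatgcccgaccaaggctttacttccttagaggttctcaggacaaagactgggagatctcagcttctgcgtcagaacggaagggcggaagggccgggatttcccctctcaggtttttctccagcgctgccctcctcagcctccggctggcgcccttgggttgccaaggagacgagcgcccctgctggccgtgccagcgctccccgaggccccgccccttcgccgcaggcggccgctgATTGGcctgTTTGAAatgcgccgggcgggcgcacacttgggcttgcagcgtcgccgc
Spc25, chr2:69206164-69206463, minus strand: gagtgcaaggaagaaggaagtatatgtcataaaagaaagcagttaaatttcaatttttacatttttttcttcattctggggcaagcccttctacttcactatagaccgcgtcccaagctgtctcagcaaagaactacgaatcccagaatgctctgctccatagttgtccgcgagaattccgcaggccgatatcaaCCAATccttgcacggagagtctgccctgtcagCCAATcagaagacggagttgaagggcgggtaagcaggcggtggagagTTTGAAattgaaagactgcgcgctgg
Anln, the gene with the opposite order, is shown beside them, a choice made after its values were seen.
Anln, chr9:22389157-22389456, minus strand: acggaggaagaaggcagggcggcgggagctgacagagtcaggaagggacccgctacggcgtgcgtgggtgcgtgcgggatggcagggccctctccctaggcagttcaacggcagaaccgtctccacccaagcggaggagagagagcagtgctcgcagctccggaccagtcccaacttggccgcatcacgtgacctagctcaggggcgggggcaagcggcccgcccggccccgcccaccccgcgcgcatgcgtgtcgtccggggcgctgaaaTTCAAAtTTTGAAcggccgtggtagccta

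Distances count from the RefSeq transcription start of each window, which can differ from the start of the annotated gene. Cenpa has its CCAAT boxes at -109 and -86 and its CHR elements at -17 and 17. Both boxes lie inside the annotated Cenpa gene, which starts at 30666777 on chromosome 5. The promoter of Ccnb2 has 3 boxes, at -87, -54 and -21, and CHR elements at -167 and 5. Aurka carries boxes at -51 and -19 and CHR elements at 18 and 33, Spc25 boxes at -55 and -23 and a CHR element at 25, and Kif23 a single box at -7 and a CHR element at 3. Anln has no CCAAT in its window and holds TTTGAA at 22 on the minus strand and at 29 on the plus strand.

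Both strands were searched, and a CCAAT box and a CHR element can share a letter only at their ends. A CCAAT box was in 22 of the 27 windows (81.5%), against 37.9% of 27025 windows in the table. TTTGAA was in 21 (77.8%, against 18.1%) and TTTAAA in 8 (29.6%, against 13.2%). Windows with a CCAAT box and either CHR form numbered 21 (77.8%, against 10.9%), and 16 held 2 or more CCAAT boxes (59.3%, against 12.2%). A pair of CCAAT boxes on the same strand 31 to 33 bases apart was in 7 windows (25.9%, against 0.862%), a spacing chosen after the sequences were seen. The other 6 windows lacked the combination. Ndc80, like Anln, had no CCAAT and held CHR elements just after the start, at 23 and 30, and its transcripts rose by 1.29 in NG against IG where those of Anln fell. Bub1 had CCAAT boxes alone, Birc5 had TTTAAA at -220 alone, and Nuf2 and Nusap1 had neither motif. Of these 6 genes, all but Anln followed the order NG above IG above TG. A match is a run of letters and was not tested as a binding site.

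**Figure D3:**
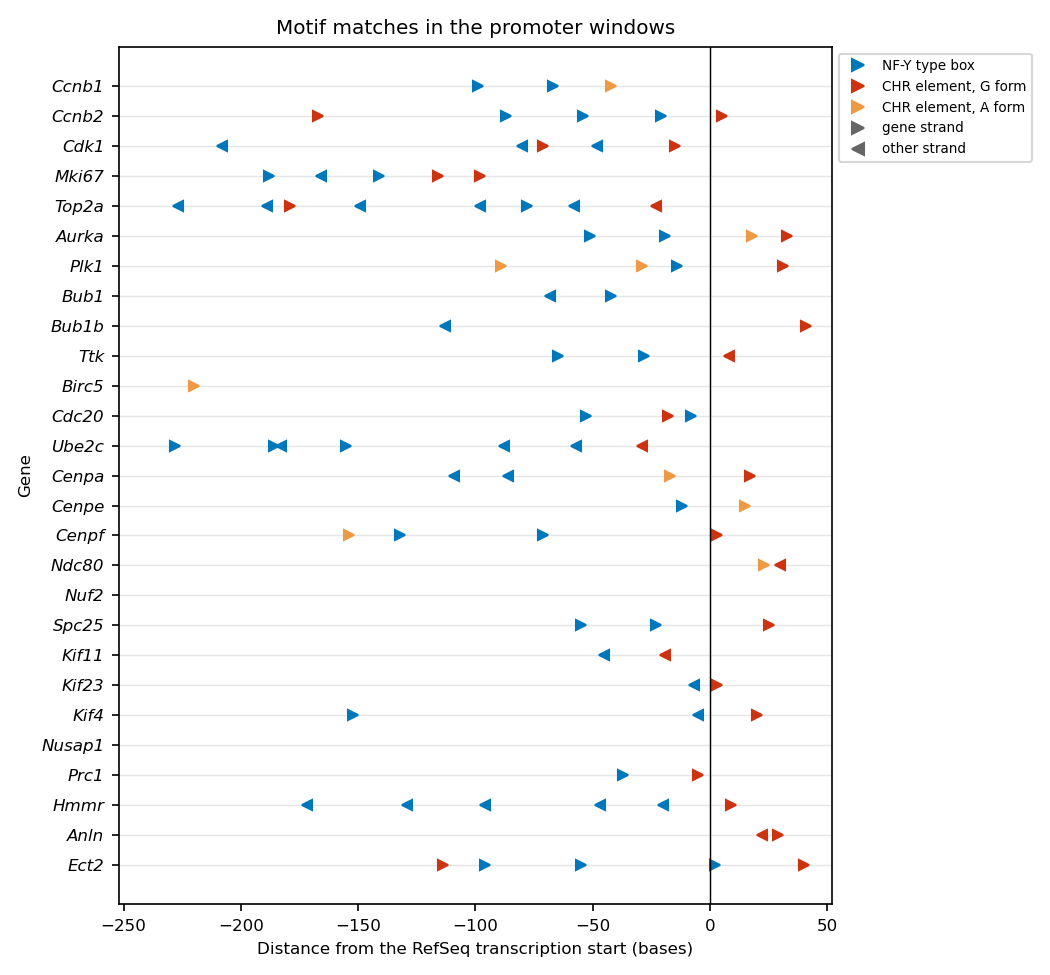
Positions of CCAAT boxes and of both forms of the CHR element, on either strand, in bases from the RefSeq transcription start, in the 27 promoter windows found, 250 bases before to 50 after. Both a CCAAT box and TTTGAA are in 19 windows, and in some of these, such as Aurka and Plk1, a CCAAT box is the nearer to the start. The windows of Anln, Ndc80, Birc5, Nuf2 and Nusap1 hold no CCAAT.

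The cyclins and Cdk1 are listed first here because they drive entry into mitosis. All 4 rose in NG against IG and all 4 fell in TG against both other groups. Ccna2, cyclin A2, the partner of Cdk2 in S phase and of Cdk1 in G2 (ENSMUSG00000027715, mm10 chromosome 3 from 36564865 to 36572150, minus strand), had 229.9 and 219 normalised reads in IG, 752 and 723 in NG and 142 and 136 in TG. The groups did not overlap, and NG stood 3.28-fold above IG and 5.32-fold above TG (log2 fold change 1.71 (SE 0.11), adjusted p = 9.4e-06 for NG against IG; log2 fold change -0.69 (SE 0.11), adjusted p = 0.0045 for TG against IG). Its exons share 12.5% of their length with Exosc9 on the other strand, and the strand setting of the counting is not given. Cdk1, the mitotic kinase itself, had 169.5 and 160.1 normalised reads in IG, 466 and 493 in NG and 90.9 and 94.7 in TG. Ccnb1, cyclin B1, had 153 and 140.4 normalised reads in IG, 442 and 369.9 in NG and 86.9 and 68.5 in TG. For Ccnb2, cyclin B2, the levels were 156 and 138 normalised reads in IG, 444 and 449 in NG and 75.6 and 91.3 in TG. Each of these 3 was highest in NG and lowest in TG in both libraries, with log2 fold changes of 1.54, 1.46 and 1.60 in NG against IG and of -0.82, -0.92 and -0.81 in TG against IG.

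Foxm1, Mki67 and Top2a rose in NG against IG and fell in TG against IG. Mki67 encodes the Ki-67 protein that coats mitotic chromosomes and is the usual marker of cycling cells (ENSMUSG00000031004, mm10 chromosome 7 from 135689784 to 135716361, minus strand). It had 1294 and 1089 normalised reads in IG, 3799.9 and 3080.1 in NG and 742 and 669.7 in TG, with the 2 NG libraries further apart than those of the other groups but clear of both, and an NG mean 2.89-fold that of IG (log2 fold change 1.53 (SE 0.12), adjusted p = 3.4e-05). Top2a, the topoisomerase that untangles sister chromatids (ENSMUSG00000020914, mm10 chromosome 11 from 98992943 to 99024189, minus strand), had 675 and 607 normalised reads in IG, 1569 and 1415 in NG and 306 and 284 in TG. It was among the 3 largest falls in TG against IG (log2 fold change -1.12 (SE 0.100), adjusted p = 3.2e-04), while its rise in NG against IG, 1.22, lay below the median of the list. Foxm1, the transcription factor that activates many genes of the list, had 164 and 143 normalised reads in IG, 326 and 306 in NG and 90.9 and 107 in TG, and its changes were smaller, at 1.04 (adjusted p = 6.7e-04) in NG against IG and -1.67 (adjusted p = 3.2e-05) in TG against NG.

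All 5 mitotic kinase and checkpoint genes rose in NG against IG and fell in TG against NG, and 4 of the 5 fell in TG against IG. Aurka, the Aurora kinase of centrosomes and spindle poles, had 107 and 109 normalised reads in IG, 307 and 353 in NG and 78.8 and 46.8 in TG. It rose by 1.60 in NG against IG, and its value in TG against IG, -0.82 (adjusted p = 0.063), was not called. Plk1, the Polo kinase of mitotic entry, had 117 and 128 normalised reads in IG, 317 and 327 in NG and 74.8 and 50.2 in TG. Bub1b, which encodes the checkpoint protein BubR1, had 118 and 135 normalised reads in IG, 359.6 and 323 in NG and 64.4 and 58.2 in TG. In both, NG exceeded IG (1.39 and 1.43) and IG exceeded TG (-0.98 and -1.03). Bub1, a checkpoint kinase, had 78.2 and 62.6 normalised reads in IG, 189.5 and 181 in NG and 44.2 and 30.8 in TG, with 1.39 in NG against IG and -0.90 in TG against IG. Ttk, the checkpoint kinase Mps1, was the lowest of the 32 in reads, with 23 reads in TG B, and had 50.3 and 48.7 normalised reads in IG, 108 and 80.7 in NG and 25.7 and 26.2 in TG. Its rise in NG against IG was among the 3 smallest (log2 fold change 0.90 (SE 0.24), adjusted p = 0.016), and the IG and NG libraries did not overlap. The call of Ttk in NG against IG was lost without IG A, IG B, NG A, TG A or TG B (adjusted p = 0.052 to 0.0995).

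Aurkb and Birc5, the kinase and the survivin subunit of the chromosomal passenger complex, which corrects faulty attachments and later directs cytokinesis, were among the largest changes in TG against NG. Birc5 (ENSMUSG00000017716, mm10 chromosome 11 from 117849251 to 117855743, plus strand) had 155 and 168 normalised reads in IG, 540.3 and 518 in NG and 83.7 and 94.7 in TG, and its NG level was 3.28-fold that of IG and 5.93-fold that of TG (log2 fold change 1.71 (SE 0.13), adjusted p = 2.4e-05 for NG against IG; log2 fold change -2.56 (SE 0.13), adjusted p = 2.0e-06 for TG against NG). Aurkb had 105 and 111 normalised reads in IG, 294 and 349 in NG and 57.9 and 53.6 in TG, with log2 fold change -2.50 (SE 0.16), adjusted p = 5.2e-06 for TG against NG. Both were also lower in TG than in IG, by -0.85 and -0.94. The other subunits of the complex were in a wider list of mitotic genes. Cdca8, borealin, had 138 and 143 normalised reads in IG, 365 and 363 in NG and 64.4 and 59.3 in TG, called in all 3 comparisons as Aurkb was. Incenp, the scaffold, had 1.17 in NG against IG and -0.37 (adjusted p = 0.103) in TG against IG.

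Cdc20, the activator of the anaphase-promoting complex, and Ube2c, the ubiquitin-conjugating enzyme that works with it, followed the same order. Cdc20 had 189.7 and 219 normalised reads in IG, 567 and 652 in NG and 130.3 and 137 in TG. Ube2c had 301 and 324 normalised reads in IG, 841 and 809 in NG and 184 and 208 in TG. In both genes the NG libraries lay well above the IG libraries, with log2 fold changes of 1.57 and 1.40, and TG lay below IG by -0.61 and -0.67. Of the Ube2c exons, 22.8% overlap those of Tnnc2, a troponin gene of fast muscle on the other strand, and Tnnc2 is listed at 0 in all 6 libraries.

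The 6 centromere and kinetochore genes all rose in NG against IG and all fell in TG against NG, while 1 of the 6, Ndc80, was called in TG against IG. Cenpa, the histone H3 variant that marks the centromere (ENSMUSG00000029177, mm10 chromosome 5 from 30666777 to 30674830, plus strand), rose most of the 32 in NG against IG, with 181 and 157 normalised reads in IG, 648 and 690.5 in NG and 104 and 145 in TG. Its NG mean was 3.96-fold that of IG (log2 fold change 1.98 (SE 0.17), adjusted p = 4.3e-05), and its TG libraries were below the IG libraries without passing the test (log2 fold change -0.45 (SE 0.17), adjusted p = 0.14). Cenpe, the kinesin that congresses chromosomes, and Cenpf, a large outer kinetochore protein, had 1.36 and 1.38 in NG against IG and -0.64 (adjusted p = 0.051) and -0.64 (adjusted p = 0.055) in TG against IG, just outside the threshold. Ndc80, Nuf2 and Spc25 are subunits of the Ndc80 complex that grips microtubules. Ndc80 had 61.9 and 56.8 normalised reads in IG, 145 and 148 in NG and 34.6 and 27.4 in TG. Nuf2 had 82.8 and 91.6 normalised reads in IG, 237 and 204 in NG and 66.0 and 69.6 in TG. Spc25 had 94.4 and 59.2 normalised reads in IG, 233 and 217 in NG and 48.3 and 53.6 in TG. The 3 subunits rose together in NG, by 1.29, 1.32 and 1.58, and the remaining subunit Spc24, from the wider list, by 1.90. In TG against IG the values were -0.92, -0.36, -0.55 and -0.36, of which the first alone was called. The interval for Nuf2, -0.74 to 0.020, included 0.

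The 4 kinesin motors rose in NG against IG and fell in TG against NG, and Kif11, Kif20a and Kif23 fell in TG against IG. Kif23, the MKLP1 motor of the central spindle (ENSMUSG00000032254, mm10 chromosome 9 from 61915905 to 61946774, minus strand), had 109 and 129 normalised reads in IG, 352 and 360.3 in NG and 54.7 and 54.8 in TG. Its TG libraries were nearly equal, and the fall in TG against NG was the largest of the list, 6.51-fold as a ratio of means (log2 fold change -2.68 (SE 0.15), adjusted p = 3.1e-06), and it was also lower in TG than in IG (log2 fold change -1.10 (SE 0.15), adjusted p = 0.0027). Kif20a, the MKLP2 motor that carries the chromosomal passenger complex to the midzone, had 96.8 and 75.4 normalised reads in IG, 154 and 160.3 in NG and 38.6 and 36.5 in TG. It combined the smallest rise in NG against IG (log2 fold change 0.87 (SE 0.20), adjusted p = 0.0076) with the largest fall in TG against IG (log2 fold change -1.16 (SE 0.20), adjusted p = 0.0068). Both values rest on the same IG libraries, so they are not independent. Cdc23, on the other strand, covers 29.3% of the Kif20a exons, and reads of the pair cannot be told apart without strand. The call of Kif20a in NG against IG was lost without NG A or NG B (adjusted p = 0.0605 to 0.071). Kif11, the Eg5 motor that separates the spindle poles, had 190.4 and 208 normalised reads in IG, 543 and 441 in NG and 135 and 95.8 in TG, with 1.30 in NG against IG and -0.80 in TG against IG. Kif4, a chromosome-bound kinesin, had 101 and 91.6 normalised reads in IG, 208 and 192 in NG and 74.8 and 67.3 in TG, and was among the 3 smallest falls in TG against NG (log2 fold change -1.48 (SE 0.16), adjusted p = 9.9e-05), with 15.1% of its exons shared with Pdzd11.

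Tpx2, Nusap1, Prc1 and Hmmr build and bundle spindle microtubules. All 4 rose in NG against IG, all fell in TG against NG, and all but Prc1 fell in TG against IG. Prc1, the bundler of antiparallel microtubules, had 262 and 212 normalised reads in IG, 534 and 475 in NG and 183 and 183 in TG. Its fall in TG against NG was the smallest in the list apart from Anln (log2 fold change -1.45 (SE 0.13), adjusted p = 3.9e-05). Its TG libraries lay below the IG libraries without passing the limma test (log2 fold change -0.36 (SE 0.13), adjusted p = 0.14). Rccd1 shares 11.1% of the Prc1 exons. Tpx2, the activator of Aurora A on the spindle, had 223 and 258 normalised reads in IG, 620.0 and 506 in NG and 139 and 148 in TG. Hmmr, which encodes the spindle protein RHAMM, had 111 and 108 normalised reads in IG, 328 and 288 in NG and 58.7 and 73.0 in TG. Both stood in the order of the list, with 1.22 and 1.48 in NG against IG and -0.73 and -0.73 in TG against IG. Nusap1, a microtubule-binding protein near chromosomes, changed by 1.17 in NG against IG and -0.76 (adjusted p = 0.0085) in TG against IG.

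The 2 cytokinesis genes went opposite ways. Ect2, the exchange factor that switches on RhoA at the division plane, had 118 and 101 normalised reads in IG, 321 and 230.2 in NG and 75.6 and 62.8 in TG, rising by 1.31 in NG against IG and standing at -0.65 (adjusted p = 0.081) in TG against IG. Anln (ENSMUSG00000036777, mm10 chromosome 9 from 22332012 to 22389188, minus strand) had 2118 and 1740.1 normalised reads in IG, 1272 and 1060.4 in NG and 2388 and 2247 in TG. Its NG libraries were below all the others, 1.65-fold under IG (log2 fold change -0.72 (SE 0.12), adjusted p = 0.0015) and 1.99-fold under TG (log2 fold change 1.00 (SE 0.12), adjusted p = 1.8e-04), and TG lay above IG without passing the test (log2 fold change 0.27 (SE 0.12), adjusted p = 0.21). The call of Anln in NG against IG was lost without IG A, NG B, TG A or TG B (adjusted p = 0.052 to 0.073). Anillin is also known outside mitosis, in the septin scaffold of mature central nervous system myelin. Markers of oligodendrocytes had the same order of groups: over 8 such genes the summed level was 1863721 and 1919399.8 in IG, 1186568 and 1226584 in NG and 2356669 and 2363382 in TG, 6 of the 8 were lower in NG than in IG and 8 of 8 were higher in TG than in NG. In TG against IG, 2 of these 8 were called higher and 6 were not called. The summed level of 10 neuron markers, given below, had the same order of groups. The part of either cell type in the Anln level was not tested.

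Per kilobase of exon, the median of the 32 was 29.2 normalised reads in IG, 88.1 in NG and 18.6 in TG. The exons of all annotated transcripts of a gene were merged for its length. Which transcripts were present was not tested, so comparisons between genes are rough. Mki67 was highest in NG at 342, followed by Cdc20 at 326, Ube2c at 317 and Ccnb2 at 292, and the first 3 overlap between libraries. The lowest in NG were Ttk at 19.2 and Ndc80 at 22.6. In IG and TG the highest of the list was Anln, at 213 and 256, and in NG it stood at 129.

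The smaller step, from IG to TG, was the least secure. All 31 genes other than Anln had lower levels in TG. Of these, 9 did not pass the adjusted limma test (Aurka, Cenpe, Cenpf, Ect2, Spc25, Cenpa, Kif4, Prc1 and Nuf2). Their log2 fold changes were -0.82 to -0.36, with limma adjusted p of 0.051 to 0.23. By role, the called genes were 4 of 4 cyclins and Cdk1, 3 of 3 transcription and proliferation genes, 4 of 5 kinases, 2 of 2 passenger complex genes, 2 of 2 anaphase-promoting complex genes, 1 of 6 kinetochore genes, 3 of 4 kinesins, 3 of 4 spindle genes and 0 of 2 cytokinesis genes. These counts were not tested against each other. All calls were lost when IG A, IG B, TG A or TG B was left out, and most were lost without NG A or NG B. Most or all calls over all genes were lost in the same fits, so the loss was not confined to these genes. In each of these fits 31 of the 32 were negative, and the median ran from -0.69 to -0.80. Without a trend of the prior variance 9 genes were called. Over all genes, total read scaling gave 683 higher and 2114 lower in TG against IG, beside 1020 and 1759 with size factors, and 25 of the 32 were then lower.

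In NG against IG, 9 of the 32 calls were lost when a library was left out, with no change of direction. The losses were Anln, Aurka, Kif11, Plk1 and Ttk without IG A (adjusted p = 0.057 to 0.087), Aurka, Bub1, Ect2, Kif11, Plk1 and Ttk without IG B (0.052 to 0.10), and Aurka, Bub1, Kif11, Kif20a, Spc25 and Ttk without NG A (0.052 to 0.060). Without NG B they were Anln, Aurka, Bub1, Kif20a, Plk1 and Spc25 (0.053 to 0.073), and without TG A or TG B they were Anln and Ttk (0.052 to 0.060). In TG against NG all 32 calls held without any 1 library.

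A wider list of 75 other mitosis and G2/M genes, all with reads, moved in the same directions with more exceptions. Like all gene lists here, it was chosen with earlier results of these data known, so its directions are not independent support. In NG against IG, 64 rose, 3 fell and 8 were not called, with a median log2 fold change of 1.22. In TG against NG, 68 fell, 3 rose and 4 were not called, with a median of -1.89. In TG against IG, 22 fell, 1 rose and 52 were not called, with a median of -0.47. The order NG above IG above TG without overlap was held by 53 of the 75, beside 11.5% of all genes tested. The largest rises in NG against IG were those of Cdkn3, a phosphatase acting on Cdk1 and Cdk2, at 2.20, Pimreg at 2.04 and Cks2, a small Cdk-binding protein, at 1.90. In TG against NG the largest falls were those of Oip5, part of the complex that licenses the loading of Cenpa, at -2.63, Cdkn3 at -2.61 and Sgo1, the shugoshin that protects cohesin, at -2.57. In TG against IG they were Cdca8 at -1.17, the kinesin Kif18b at -1.17 and Sgo1 at -1.10.

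The 3 exceptions in NG against IG were Fam83d, a spindle-associated protein, Cit, the citron kinase of cytokinesis, and Ckap5, a microtubule polymerase. Fam83d had 307 and 332 normalised reads in IG, 116 and 105 in NG and 200.3 and 186 in TG. Cit had 1731 and 1824 normalised reads in IG, 948 and 1007 in NG and 2604 and 2684 in TG. Ckap5 had 2436 and 2118 normalised reads in IG, 1572 and 1286 in NG and 2281 and 2075 in TG. All 3 were lowest in NG, by -1.53, -0.86 and -0.68 against IG, and Cit was the gene called higher in TG than in IG, at 0.57 (adjusted p = 0.0023). Genes with no call in NG against IG included Bub3, a checkpoint protein, at -0.094, Fzr1, the Cdh1 activator that works in resting cells, at 0.13, and Wee1, the kinase that holds Cdk1 inactive, at 0.16.

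**Figure D4:**
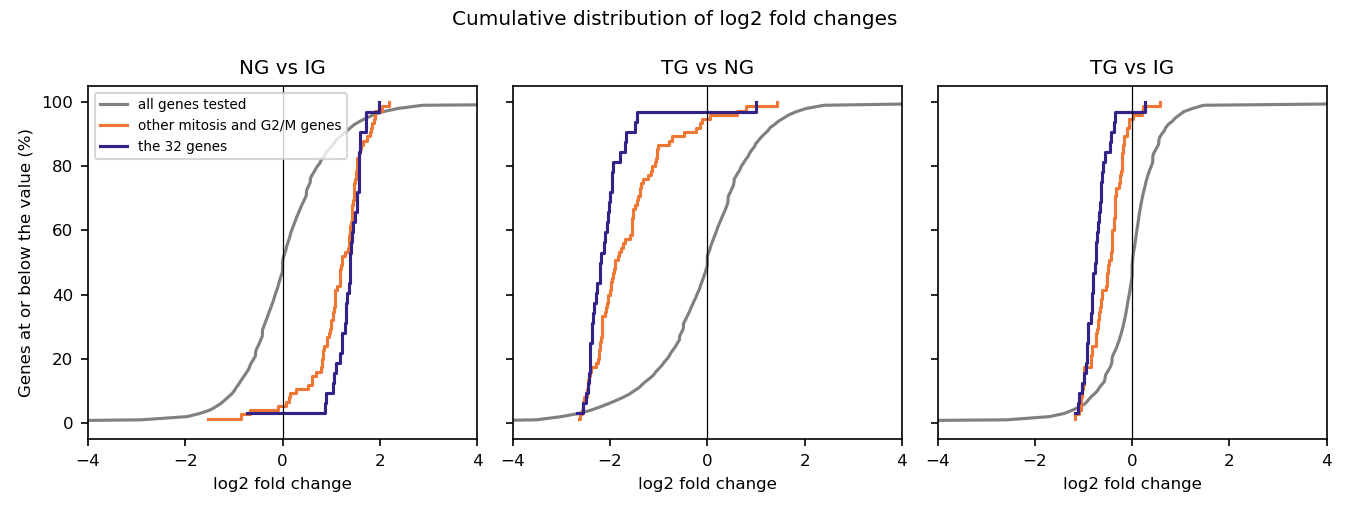
Cumulative percentage of genes at or below each log2 fold change, for the 32 genes, the 75 other mitosis and G2/M genes and all 24511 genes tested, in the 3 comparisons. Both lists lie to the right of all genes in NG against IG (medians 1.39 and 1.22, against 0.00) and to the left in TG against NG and TG against IG.

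Genes of other cell cycle phases were set beside them. All 12 S phase and replication genes rose in NG against IG, with a median of 1.41, and all 12 fell in TG against NG, with a median of -2.06, and 8 fell in TG against IG. Among them Cdc6, which loads the replicative helicase, had 87.5 and 106 normalised reads in IG, 349.9 and 311 in NG and 40.2 and 41.1 in TG. Gins2, a helicase subunit, had 47.2 and 70.8 normalised reads in IG, 219 and 239.8 in NG and 39.4 and 51.3 in TG. Both were clear of overlap between NG and the other groups. Over the helicase genes Mcm2 to Mcm7, log2 fold changes in NG against IG ran from 0.90 for Mcm4 to 1.52 for Mcm2, and Rrm2, the ribonucleotide reductase subunit, rose by 1.47, Cdt1 by 1.41, Tyms by 1.35 and Pcna, the sliding clamp, by 0.69.

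Of 8 G1 cyclins and kinases, 6 rose in NG against IG, 7 fell in TG against NG and 4 fell in TG against IG. The rises were Cdk2 at 1.30, Ccne2 at 1.19, Ccnd2 at 1.03, Ccnd3 at 0.92, Ccne1 at 0.61 and Cdk4 at 0.31, while Ccnd1, cyclin D1, stood at 0.075. Of 7 Cdk inhibitors, Cdkn2a rose by 2.92, Cdkn2c by 1.56 and Cdkn2b by 1.28, and Cdkn1a, the p21 inhibitor induced by p53, fell (log2 fold change -0.99 (SE 0.11), adjusted p = 1.5e-04). Cdkn1a had 2489 and 2819 normalised reads in IG, 1206 and 1473 in NG and 1525 and 1557 in TG, so that it was highest in IG. In TG against NG, Cdkn2a, Cdkn2c, Cdkn2b and Cdkn1b fell, and in TG against IG, Cdkn1a, Cdkn2c and Cdkn1b fell. Of 11 subunits of the DREAM and MuvB complexes, 6 rose in NG against IG: Rbl1, the p107 pocket protein, by 1.39, Lin9 by 0.87, E2f4 by 0.74, Tfdp2 by 0.46, Tfdp1 by 0.35 and Lin52 by 0.33. In TG against NG 6 of the 11 fell (Rbl1, Lin9, E2f4, Tfdp2, Lin37 and Tfdp1), and none of the 11 was called by limma in TG against IG.

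Marker genes of several cell types differed between the groups together with the mitotic genes. None of the 32 is in a marker list, and no listed marker was at 0 in all libraries. The counts of called markers stand beside 19.7% of all genes higher and 20.4% lower in NG against IG. In TG against IG, 7.18% of all genes were lower. Markers of other leukocytes and marrow cells followed the same order as the mitotic genes, with a summed level of 8028 and 8218 in IG, 32282 and 31473 in NG and 2890.5 and 3191 in TG, and 9 of 9 were higher in NG than in IG and 8 of 9 lower in TG than in IG. S100a9, a neutrophil protein, had 2456 and 2279.5 normalised reads in IG, 10643 and 9478 in NG and 998 and 934 in TG. Fibroblast and meningeal markers did so too, with 38138 and 38668 in IG, 114966 and 116028 in NG and 17753 and 17439 in TG, 7 of 8 higher in NG than in IG and 7 of 8 lower in TG than in IG. Skeletal muscle markers were far higher in NG, with 7749 and 8058 in IG, 72994 and 77585 in NG and 10156 and 10065 in TG, with 6 of 8 called higher than in IG, and their TG sums lay above those of IG. Endothelial markers were called higher in NG than in IG for 6 of 8 and lower for 1, beside 19.7% of all genes called higher. Cartilage and bone markers were called higher for 4 of 8. Erythroid precursor markers were called higher for 4 of 8, while 3 of 8 had negative values that were not called. Their summed level did not rise, with 332882 and 373164 in IG, 302100 and 337385 in NG and 370988 and 410912 in TG.

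Neural markers went the other way in NG against IG. All 10 neuron markers were lower in NG than in IG, with a summed level of 76776 and 75057 in IG, 44391 and 42226 in NG and 91961 and 89309 in TG, and so were 7 of 8 astrocyte markers, with 132405 and 131459 in IG, 86228 and 86375 in NG and 111802 and 110033 in TG. Of oligodendrocyte precursor markers 6 of 7 were lower, with 27924 and 32839 in IG, 10573 and 13669 in NG and 23042 and 24993 in TG, and of progenitor and ependymal markers 5 of 6, with 3962 and 4247 in IG, 2682 and 3007 in NG and 3841 and 3951 in TG. In all these lists both NG sums lay below both IG sums. Over all genes, 20.4% were called lower and 19.7% higher in NG against IG. In TG against IG, 4 of 7 oligodendrocyte precursor markers were called lower and 3 were not called. There limma called 3 of 10 neuron markers higher, 1 of 8 astrocyte markers higher and 1 lower, and 1 of 6 progenitor and ependymal markers lower. Over all genes, 7.18% were lower and 4.16% higher in TG against IG. Microglial markers were lower for 3 of 8 and higher for 1 (6450.4 and 6161 in IG, 4639 and 4602 in NG and 6448 and 6149 in TG), and Schwann cell markers lower for 4 of 6 in NG against IG and 6 of 6 in TG against IG (132183 and 136961 in IG, 107622 and 107176 in NG and 31484 and 31516 in TG). The part of these cell types in the levels of the mitotic genes was not tested, and the files hold no separated cells.

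**Figure D5:**
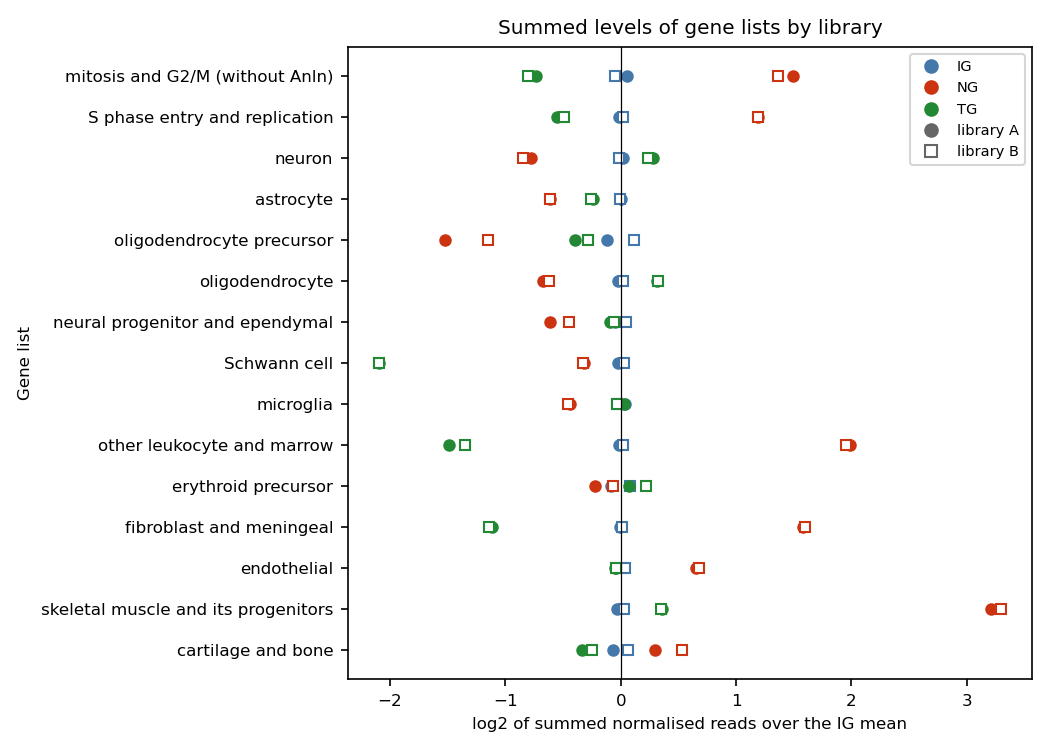
Log2 of the summed normalised reads of each gene list over the IG mean, in libraries A and B of each group, for the 31 mitotic genes without Anln, the S phase genes and the marker lists. The mitotic, leukocyte and fibroblast sums are highest in NG and lowest in TG, while the neuron and oligodendrocyte sums are lowest in NG.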

How the data were processed

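The 6 libraries were grouped by their labels into IG, NG and TG. The submitters' processing notes name Bowtie2 2.0.6, HTSeq 0.6.1 and the mm10 build, without their roles. The sources used here do not give the annotation, the counting settings or the test behind the deposited p-values. For each pair of groups the authors deposited normalised signal per gene, each value being a group mean of size-factor scaled reads over 2 libraries. The deposited tables also hold p-values, raw and adjusted, and log2 ratios of the means. Each group is in 2 tables with different size factors, so the reads of both libraries were solved from 2 equations; 100% of 35275 genes per group gave whole reads within a tolerance of 0.001. The means carry no sample numbers, so libraries A and B are not tied to a labelled sample.

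Median-of-ratios factors over the 6 libraries scaled the recovered reads, which were fitted with limma 3.58.1 in R 4.3.3 after a log2 transform with a pseudocount of 1, over 24511 genes with a read, all 6 libraries in 1 fit, with a variance trend, 3 residual and 5.23 prior degrees of freedom, two-sided. The pseudocount shrinks fold changes of genes with few reads. Intervals are 95% intervals from limma and cover the spread between libraries. Symbols, positions and exon lengths come from GENCODE M21, which matched 34490 of 35275 IDs; promoters come from RefSeq.

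The members and all gene lists were chosen with earlier results of these data known. Named genes were the members by role, those with the 3 largest and 3 smallest changes in each comparison, the called genes of short lists, the 3 highest and 3 lowest of the wider list, and abundant markers, of which a gene is not reported here. Alternatives changed the scaling, pseudocount, filter, variance trend and libraries in the fit.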

Additional observations from a re-analysis of the deposited data

How the results depend on the processing

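No member and no median of the members changed direction under the alternatives run. Over all genes, the balance of higher and lower calls turned in NG against IG with upper quartile scaling (5164 and 4674, beside 4817 and 5001). It also turned there without a variance trend (3940 and 3875) and without TG B. In TG against NG it turned with a filter at a mean of 10 (5313 and 5220, beside 5433 and 5668), and without TG A or TG B. The members called numbered 26 to 30 in NG against IG with a library left out and 32 in TG against NG; the median of the members was 1.31 in NG against IG with total read scaling, and in TG against NG it was -2.11 with a pseudocount of 5 and -2.23 to -2.07 with a library left out. Over all genes, NG against IG gave 6252 to 7566 calls with a library left out, beside 9818 with all, and the wider mitosis list 44 to 56, beside 67. In TG against IG without a variance trend, 9 members, 8 genes of the wider list and 1318 of all genes were called, beside 22, 23 and 2779; with a library left out the counts were 0 to 6, 0 to 3 and 0 to 1012. The cause of these losses was not tested beyond the fewer libraries of each fit. A lone library was assumed to vary like the other groups. Another scaling shifted log2 fold changes over all genes by a median of less than 0.1, and with total read scaling the median of all genes in TG against IG was -0.030, beside 0.0068. The lowest member had 23 reads in a library. TMM scaling and edgeR were not run. No paired analysis was possible because the deposited columns carry no replicate numbers.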

Other observations

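Promoters of the 75 other mitosis and G2/M genes were searched for the same elements. Of 60 windows found, 70.0% had a CCAAT box, 58.3% had TTTGAA, 13.3% had TTTAAA and 48.3% had a CCAAT box with either CHR form. A pair of CCAAT boxes on the same strand 31 to 33 bases apart was in 2 of the 60.

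Tnnc2, the troponin gene whose exons cover 22.8% of those of Ube2c on the other strand, was listed at 0 in all 6 libraries, while Tnnt3, another troponin gene of fast muscle, had 1427 and 1328 normalised reads in IG, 14836 and 14371 in NG and 1923 and 2022 in TG. The reason was not tested.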
